A study of Mus musculus with 24 samples.

Results

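The genes described here are 32 genes of protein folding, quality control and stress signalling in the endoplasmic reticulum (ER), chosen by symbol from the 53465 rows of a gene count table. All 32 were present, and all 32 were among the 14249 genes that passed a filter on low counts. RNA-seq measured them in RN2, a line of mouse acute myeloid leukaemia cells with the genotype Mll-Af9 and Nras G12D, which every clone carried, controls included. Clones had been transduced with a retroviral vector for a hairpin RNA that doxycycline switches on. The hairpins shOgdh346 (clones 1 and 5) and shOgdh2081 (clones 3 and 5) target Ogdh, and shRen713 (clones 2 and 7) is the control. Each clone was sampled at day 4 of doxycycline and at day 0, labelled untreated, with 2 libraries per clone and day and 24 libraries in all. Each clone is a clonal isolate, so a group rests on 2 isolates, and the labels do not say whether the 2 libraries of a clone and day came from separate cultures. The question is how the members' levels changed after 4 days of an Ogdh hairpin, and whether the folding, degradation and signalling genes changed alike. The day and the doxycycline cannot be told apart within a hairpin, so each change is also given net of the same change in the control.

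Proteins made for secretion or for membranes enter the ER through the Sec61 translocon and fold there with the help of the Hsp70 chaperone BiP, the Hsp90 chaperone Grp94, the lectin chaperones calnexin and calreticulin, and enzymes that form disulfide bonds. Proteins that fail to fold are drawn back into the cytosol and broken down, a route called ER-associated degradation (ERAD). When unfolded proteins build up, the sensors IRE1, PERK and ATF6 start the unfolded protein response (UPR): IRE1 splices the mRNA of the transcription factor XBP1, PERK slows translation, and ATF6 is cleaved to release a transcription factor. ATF6 and XBP1 act on chaperone and ERAD genes through short promoter motifs such as the ER stress element, which binds the factor NF-Y at its CCAAT letters and ATF6 at its CCACG letters. Gene counts show the total mRNA of each gene and not the splicing of Xbp1.

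Total counts ranged from 7209186 to 20705468 per library. Ogdh had 32.2 to 70.9 CPM in the 8 Ogdh hairpin libraries at day 4 and 205 to 252 CPM in the 4 control libraries. Its net log2 change was -1.76 ± 0.18 (adjusted p = 4.00e-04) in the fit described below. At day 0 it had 126 to 150 CPM with shOgdh346, 163 to 234 CPM with shOgdh2081 and 202 to 249.4 CPM in the control. With shOgdh346 all day 0 libraries thus lay below all control libraries, so day 0 was not a state of equal Ogdh. All 8 markers of leukaemia cell identity, Kit, Myb and Mpo among them, had a mean over 1 CPM in every group. At day 4 they summed to 3035 to 3278 CPM with shOgdh346, 3317 to 6097 CPM with shOgdh2081 and 5373 to 7771 CPM in the control. In the net change 3 fell and 2 rose. The summed level of 8 T and natural killer cell markers was at most 0.768 CPM in any library. That of 10 B and plasma cell markers was at most 17.1 CPM, with shOgdh346 at day 0. At day 4 the 8 stromal and endothelial markers summed to 268 to 419 CPM with shOgdh346, 370 to 406 CPM with shOgdh2081 and 308 to 341 CPM in the control. Of the 4 tested, 3 rose. Pecam1 was the most abundant of these markers in every group, and Col1a2 and Dcn had no counts in any group. The 12 neutrophil maturation markers summed to 7085 to 45748 CPM in the 8 Ogdh hairpin libraries at day 4 and to 400.4 to 1472 CPM in the 4 control libraries. The 6 primary granule markers summed to 2836 to 7050.2 CPM in the Ogdh hairpin libraries and to 9701 to 10914 CPM in the control libraries. Mpo is in this list and in that of leukaemia cell identity, so their sums are not independent. The 8 monocyte and macrophage markers summed to 678 to 2271 CPM in the Ogdh hairpin libraries at day 4 and to 418 to 474 CPM in the control libraries, and 5 of the 8 rose in the net change. The 8 erythroid and megakaryocyte markers summed to 15.1 to 75.4 CPM in the Ogdh hairpin libraries at day 4 and to 2.54 to 8.26 CPM in the control libraries, and 2 of the 3 tested rose. The part of these shifts in the results below was not tested, and in bulk RNA a change in the make-up of the cells and a change of RNA per cell cannot be told apart.

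Of the 32 members, 18 fell and 2 rose in the net change, averaged over the Ogdh hairpins, against a background of 19.8% of all genes tested that fell and 17.9% that rose. The net change is the log2 change from day 0 to day 4 with an Ogdh hairpin minus the same change in the control, tested by quasi-likelihood in edgeR with p-values adjusted over all genes by Benjamini-Hochberg and a threshold of 0.05. Here ± gives the standard error (SE) of a fitted log2 value. The members' median net log2 change was -0.42, beside -0.00 over all genes tested. Most members are abundant, and among the 8828 genes with a mean of at least 10 CPM, 2516 fell and 1743 rose, with a median of -0.09. By role, all 6 chaperones fell, with a median of -0.62. Of the disulfide enzymes 3 of 5 fell and 1 rose, and of the co-chaperones 2 of 4 fell. Both secreted UPR proteins and both translocon subunits fell. Of the 9 degradation genes 2 fell, 1 rose and 6 were not called, and their median was -0.02. Of the 4 sensors and transcription factors 1 fell. The counts rest on 2 control clones, and with either of them left out most members that fell lost their calls. The chaperone median was -0.61 without control clone 2 and -0.65 without control clone 7, beside -0.01 and 0.00 over all genes. Without the clone as a replicate block there were 9 members that fell and 0 that rose. The share of all genes called in these settings is not given here. Leaving out an Ogdh clone or a library left at least 15 that fell.

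**Figure D1:**
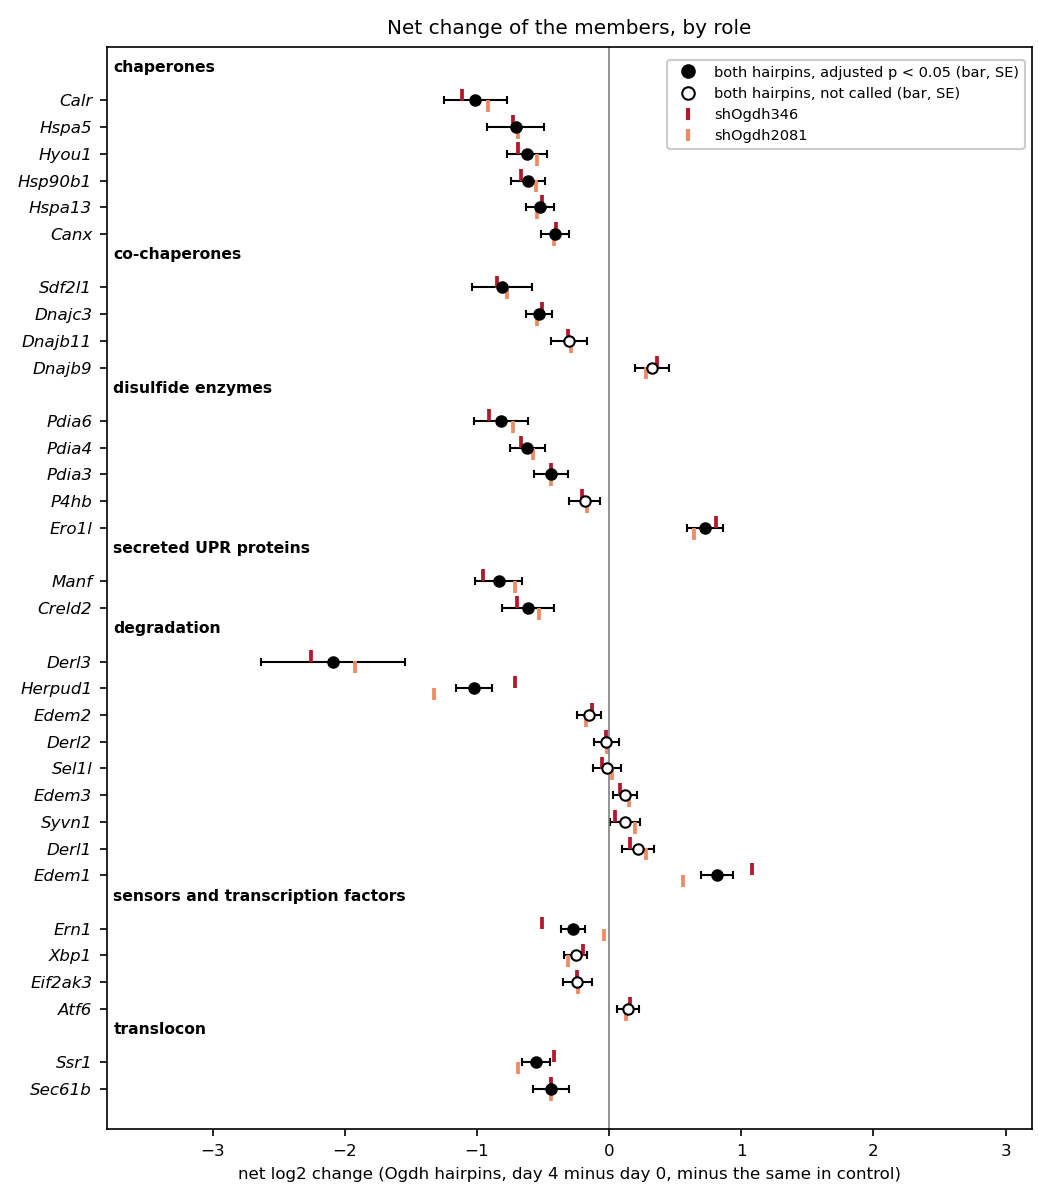
Net log2 change of the 32 members, grouped by role. Circles give the mean of both Ogdh hairpins with its SE, filled where adjusted p was under 0.05, and ticks give each hairpin alone; the chaperones lie between -1.01 and -0.41, and the degradation genes run from -2.09 for Derl3 to 0.82 for Edem1.

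The promoters of several members hold the ER stress element, and 6 are shown as examples from the chaperones, disulfide enzymes and degradation genes, 5 of genes that fell and 1, Syvn1, of a gene that was not called. RefSeq windows of 250 bases before to 50 bases after the gene start (GRCm38.p6) were matched for 27 of the 32 members. The RefSeq start can differ from that of the count table. The Hspa5 stretch printed here precedes the RefSeq start but lies inside the gene span given below. Stretches around the element are printed 5′ to 3′ on the strand of the gene, with the letters of the motif in capitals. A motif on the opposite strand reads CGTGG and then ATTGG.
Hspa5: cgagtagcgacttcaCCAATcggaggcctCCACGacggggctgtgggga
Hsp90b1: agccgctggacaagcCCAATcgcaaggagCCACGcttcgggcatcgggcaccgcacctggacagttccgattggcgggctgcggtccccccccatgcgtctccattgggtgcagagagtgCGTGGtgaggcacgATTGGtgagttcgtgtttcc
Calr: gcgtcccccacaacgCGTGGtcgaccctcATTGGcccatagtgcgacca
Pdia6: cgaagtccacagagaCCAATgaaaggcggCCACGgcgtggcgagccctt
Herpud1: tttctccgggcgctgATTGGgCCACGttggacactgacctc
Syvn1: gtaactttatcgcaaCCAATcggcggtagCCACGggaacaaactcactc
These lie at chr2:34772010-34772058, plus strand for Hspa5, chr10:86705518-86705671, minus strand for Hsp90b1, chr8:84847060-84847108, minus strand for Calr, chr12:17266476-17266524, plus strand for Pdia6, chr8:94386362-94386402, plus strand for Herpud1 and chr19:6046517-6046565, plus strand for Syvn1.

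The ER stress element was searched on both strands as CCAAT and CCACG with 9 bases between them, and its type II form as ATTGG, any base and CCACG. Either form was present in 11 of the 27 member windows (40.7%) and in 51 of all 32851 RefSeq windows (0.155%). The holders were the chaperones Hspa5, Hsp90b1 (with 2 copies), Calr and Canx, the co-chaperones Dnajc3 and Dnajb11, Pdia6, Creld2, Syvn1, Derl3 and Herpud1. The element is known from promoters of such chaperone genes, so its presence here is a description of known targets. Of these 11 members, 9 fell and 0 rose, with a median net log2 change of -0.62. Of the 16 members with a window and no element, 6 fell and 2 rose, with a median of -0.21, and of the 5 members without a matched window 3 fell. Among the 14 other tested genes with the element, 4 fell and 1 rose, with a median of -0.20. The UPR element TGACGTGG, which shares its CGTGG letters with the reversed end of the ER stress element, was in 0 of 27 member windows and in 0.676% of all windows. The C/EBP-ATF element TGATGNAA, a site for ATF4 and its partners, was in 1 of 27, that of Herpud1, and in 3.97% of all windows.

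**Figure D2:**
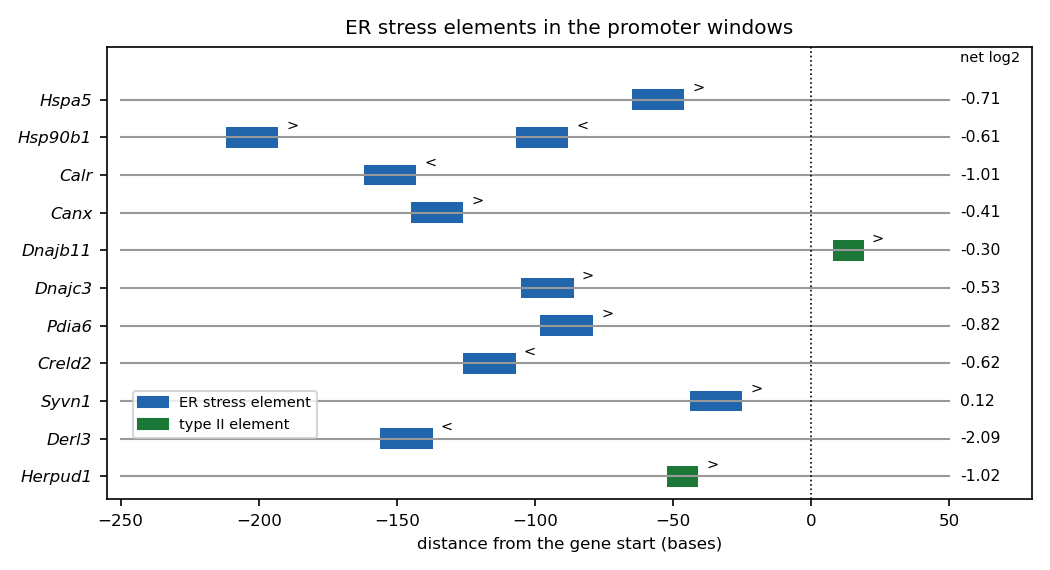
Position of the ER stress element (blue) and its type II form (green) in the promoter windows of 11 members, in bases from the gene start, with the net log2 change of each gene at the right and a mark for the strand of the motif. Elements lie before the RefSeq start in 10 genes and after it in Dnajb11. All net changes but that of Syvn1 (0.12) are negative.

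All 6 chaperones fell, and in all 6 every Ogdh hairpin library at day 4 lay below every control library. Hspa5 encodes BiP, the main Hsp70 of the ER lumen (ENSMUSG00000026864, chromosome 2, 34771970 to 34777547, build GRCm38). It had 684, 659, 969 and 911 CPM in the shOgdh346 libraries at day 4, 1152, 1085, 668 and 652 CPM in the shOgdh2081 libraries and 1292, 1260.2, 1362 and 1301 CPM in the control libraries. At day 0 it had 1321, 1063, 1499 and 1166 CPM with shOgdh346, 1509, 1230.3, 1537 and 1195 CPM with shOgdh2081 and 1371, 1078, 1413 and 1156 CPM in the control. With shOgdh346 and with shOgdh2081, 1 clone was lower than its partner at day 4, clone 1 of the first and clone 5 of the second, while the control clones were close to each other. Its net log2 change was -0.71 ± 0.21 (adjusted p = 0.0313), which is 0.612-fold. The call was lost in 6 of 39 alternative settings, with an adjusted p of up to 0.160 without control clone 2, and neither hairpin alone passed the threshold (adjusted p = 0.0515 for shOgdh346 and 0.0700 for shOgdh2081).

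Calr, the gene of the soluble lectin chaperone calreticulin (ENSMUSG00000003814, chromosome 8, 84841850 to 84846934), had the lowest net log2 change of the chaperones. It had 876, 939.8, 1651 and 1764 CPM in the shOgdh346 libraries at day 4, 1599, 1718, 1112 and 1196 CPM in the shOgdh2081 libraries and 2313, 2471, 2338 and 2441 CPM in the control libraries. At day 0 the same clones had 2767, 2197, 2905 and 2496 CPM with shOgdh346, 2700.0, 2428, 2756 and 2397 CPM with shOgdh2081 and 2530.4, 2129, 2477 and 2165 CPM in the control. No Ogdh hairpin library at day 4 reached the lowest control library, and clone 1 of shOgdh346 was the lowest of all. The net log2 change was -1.01 ± 0.24 (adjusted p = 0.0117), or 0.495-fold. Canx, which encodes the membrane-bound partner calnexin (ENSMUSG00000020368, chromosome 11, 50293961 to 50325673), changed less: it had 535 to 717 CPM in the 8 Ogdh hairpin libraries at day 4 and 751 to 803 CPM in the 4 control libraries, with a net log2 change of -0.41 ± 0.10 (adjusted p = 0.0142). The ordering of Calr and Canx as sizes of change was not tested.

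Hsp90b1 encodes Grp94, the Hsp90 of the ER, which folds integrins and Toll-like receptors (ENSMUSG00000020048, chromosome 10, 86690209 to 86705509). It had 660.0 to 895 CPM in the 8 Ogdh hairpin libraries at day 4 and 1109 to 1208 CPM in the 4 control libraries, and its net log2 change was -0.61 ± 0.13 (adjusted p = 0.00592). Hyou1, the large Hsp70-like protein that renews the nucleotide of BiP (ENSMUSG00000032115, chromosome 9, 44379490 to 44392369), had 218 to 332 CPM in the 8 Ogdh hairpin libraries at day 4 and 395 to 409.9 CPM in the 4 control libraries, with a net log2 change of -0.62 ± 0.15 (adjusted p = 0.0112). Hspa13, an Hsp70-related protein of the microsomes (ENSMUSG00000032932, chromosome 16, 75755190 to 75766821), had 32.8 to 55.2 CPM in the 8 Ogdh hairpin libraries at day 4 and 64.5 to 65.6 CPM in the 4 control libraries, and its net log2 change was -0.53 ± 0.11 (adjusted p = 0.00451). In the control, day 4 minus day 0 changes of the 6 chaperones lay between -0.05 for Hyou1 and 0.18 for Hsp90b1, and none was called.

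**Figure D3:**
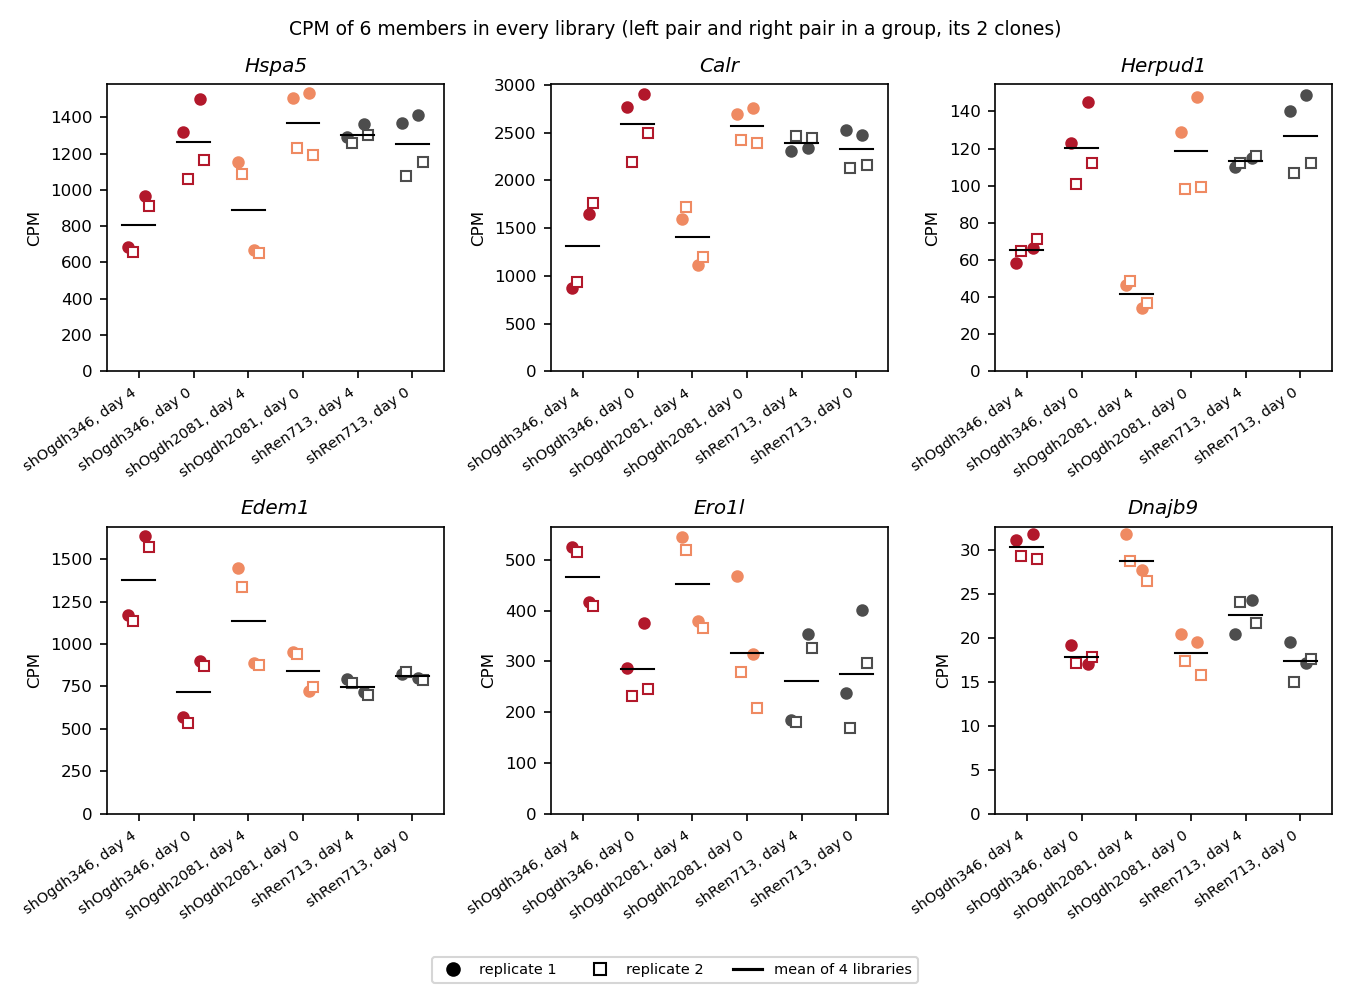
CPM of 6 members in all 24 libraries, with replicate 1 as filled circles and replicate 2 as open squares, the 2 clones of a group side by side and the mean of its 4 libraries as a line. Hspa5, Calr and Herpud1 are low at day 4 with either Ogdh hairpin, Edem1, Ero1l and Dnajb9 are high, and the day 0 groups overlap.

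The co-chaperones, which steer BiP to its clients, split: 2 fell and 2 were not called. Sdf2l1, a partner of the J protein ERdj3 (ENSMUSG00000022769, chromosome 16, 17130138 to 17132383), had 65.5 to 107 CPM in the 8 Ogdh hairpin libraries at day 4 and 143 to 151 CPM in the 4 control libraries and a net log2 change of -0.81 ± 0.23 (adjusted p = 0.0306). Dnajc3, the luminal J protein also called p58IPK (ENSMUSG00000022136, chromosome 14, 118937976 to 118981697), had 128 to 165 CPM in the 8 Ogdh hairpin libraries at day 4 and 208 to 217 CPM in the 4 control libraries and a net log2 change of -0.53 ± 0.10 (adjusted p = 0.00334). Both passed the test. Dnajb11, which encodes ERdj3 (ENSMUSG00000004460, chromosome 16, 22857845 to 22879634), had 144 to 188 CPM in the 8 Ogdh hairpin libraries at day 4 and 201 to 211 CPM in the 4 control libraries, and its net log2 change of -0.30 ± 0.14 (adjusted p = 0.115) was not called. Sdf2l1 lost its call in 5 of 39 settings and Dnajc3 in 1.

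Dnajb9, the gene of the J protein ERdj4 that presents BiP to IRE1 (ENSMUSG00000014905, chromosome 12, 44205559 to 44210326), ran against the other co-chaperones. It had 31.1, 29.3, 31.8 and 29.0 CPM in the shOgdh346 libraries at day 4, 31.8, 28.8, 27.7 and 26.5 CPM in the shOgdh2081 libraries and 20.5, 24.1, 24.3 and 21.7 CPM in the control libraries. At day 0 it had 19.2, 17.2, 17.01 and 17.8 CPM with shOgdh346, 20.5, 17.3, 19.5 and 15.8 CPM with shOgdh2081 and 19.6, 14.99, 17.2 and 17.6 CPM in the control. Every Ogdh hairpin library at day 4 lay above every control library, and the day 0 groups overlapped. Within hairpins its log2 change from day 0 to day 4 was 0.75 ± 0.10 (adjusted p = 2.46e-04) with shOgdh346 and 0.67 ± 0.10 (adjusted p = 6.48e-04) with shOgdh2081, both called, and 0.39 ± 0.11 (adjusted p = 0.0602) in the control, not called. Its net log2 change of 0.32 ± 0.13 (adjusted p = 0.0769) did not pass. It passed in 3 of 39 settings: among genes with a mean of at least 10 CPM, with upper-quartile scaling and with libraries as units. At day 4 its level was higher with the Ogdh hairpins by 0.39 ± 0.09 (adjusted p = 0.00825) on the log2 scale.

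Of the disulfide enzymes, the oxidoreductases Pdia6, Pdia4 and Pdia3 fell and the oxidase Ero1l rose. Pdia6, which acts on BiP clients and on the sensors (ENSMUSG00000020571, chromosome 12, 17266545 to 17284770), had 246, 240.5, 353 and 326 CPM in the shOgdh346 libraries at day 4, 422, 407, 300.3 and 293 CPM in the shOgdh2081 libraries and 572, 569, 579 and 569 CPM in the control libraries, and at day 0 it had 587, 514, 555 and 481 CPM with shOgdh346, 606, 533, 663 and 538 CPM with shOgdh2081 and 607, 515, 611 and 526 CPM in the control. All day 4 values with an Ogdh hairpin lay below the control values. The net log2 change was -0.82 ± 0.21 (adjusted p = 0.0166). Pdia4, the enzyme ERp72 (ENSMUSG00000025823, chromosome 6, 47796141 to 47813430), had 183 to 225 CPM in the 8 Ogdh hairpin libraries at day 4 and 285 to 301 CPM in the 4 control libraries and a net log2 change of -0.62 ± 0.13 (adjusted p = 0.00649). Pdia3, the enzyme ERp57 that works with calnexin and calreticulin (ENSMUSG00000027248, chromosome 2, 121413775 to 121438687), had 645 to 796 CPM in the 8 Ogdh hairpin libraries at day 4 and 859 to 914 CPM in the 4 control libraries and a net log2 change of -0.44 ± 0.13 (adjusted p = 0.0237). P4hb, the classical protein disulfide isomerase (ENSMUSG00000025130, chromosome 11, 120560298 to 120573253), overlapped between the groups at day 4, with 1065 to 1401 CPM in the 8 Ogdh hairpin libraries at day 4 and 1341 to 1516 CPM in the 4 control libraries, and its net log2 change of -0.18 ± 0.12 (adjusted p = 0.256) was not called. Pdia6 overlaps Atp6v1c2 and Pdia3 overlaps Catsper2 on the opposite strand in GENCODE M21, and since the strand setting of the counting is not given in the sources used here, their counts may hold reads of these neighbours.

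Ero1l, the oxidase that recharges protein disulfide isomerase (ENSMUSG00000021831, chromosome 14, 45283087 to 45318771), had 525, 516, 418 and 409 CPM in the shOgdh346 libraries at day 4, 546, 519, 379 and 365 CPM in the shOgdh2081 libraries and 185, 181, 355 and 326 CPM in the control libraries. At day 0 it had 286, 233, 375 and 246 CPM with shOgdh346, 467, 278, 314 and 209 CPM with shOgdh2081 and 237, 168, 401 and 296 CPM in the control. The lowest Ogdh hairpin library at day 4 was just above the highest control library, the control clones stood apart from each other at both days, and the libraries of 1 clone at day 0 differed more than those at day 4. The net log2 change was 0.73 ± 0.13 (adjusted p = 0.00304), or 1.65-fold, and the call was lost only without the clone as a replicate block (adjusted p = 0.301). As a level at day 4, the difference of 0.81 ± 0.33 (adjusted p = 0.0852) was not called.

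Both secreted UPR proteins fell. Manf, a secreted neurotrophic factor that also binds BiP (ENSMUSG00000032575, chromosome 9, 106838312 to 106891979), had 84.5, 93.4, 119.8 and 119.5 CPM in the shOgdh346 libraries at day 4, 159, 149, 97.9 and 106 CPM in the shOgdh2081 libraries and 204, 198, 213 and 211 CPM in the control libraries, and a net log2 change of -0.83 ± 0.18 (adjusted p = 0.00803). Creld2, a secreted protein with disulfide isomerase activity (ENSMUSG00000023272, chromosome 15, 88819646 to 88826681), had 30.4 to 55.3 CPM in the 8 Ogdh hairpin libraries at day 4 and 65.8 to 67.9 CPM in the 4 control libraries and a net log2 change of -0.62 ± 0.20 (adjusted p = 0.0406). In both, the day 4 groups did not overlap. Creld2 lost its call in 7 of 39 settings. Manf overlaps Dcaf1 and Rbm15b in GENCODE M21, so its counts may hold reads of these genes.

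Of the degradation genes, Herpud1 and Derl3 fell and Edem1 rose. Herpud1 encodes Herp, a membrane protein that organises the Hrd1 ubiquitin ligase complex (ENSMUSG00000031770, chromosome 8, 94386438 to 94395377). It had 58.3, 64.7, 66.4 and 71.4 CPM in the shOgdh346 libraries at day 4, 46.6, 48.5, 34.1 and 36.7 CPM in the shOgdh2081 libraries and 109.8, 112, 115 and 116 CPM in the control libraries. At day 0 it had 123, 101, 145 and 112 CPM with shOgdh346, 129, 98.2, 148 and 99.0 CPM with shOgdh2081 and 140.1, 107, 149 and 112 CPM in the control. All 8 Ogdh hairpin libraries at day 4 were below all 4 control libraries, and those of shOgdh2081 were below those of shOgdh346. Its net log2 change was -1.02 ± 0.14 (adjusted p = 6.33e-04), or 0.493-fold, and it kept its call in all 39 alternative settings, with a highest adjusted p of 0.0103 and values from -1.17 to -0.90. Within the hairpins the net log2 change was -0.71 ± 0.16 (adjusted p = 0.00747) for shOgdh346 and -1.32 ± 0.16 (adjusted p = 8.83e-04) for shOgdh2081. The difference between the hairpins of 0.61 ± 0.16 (adjusted p = 0.246) was not called. An antisense gene, Gm15890, overlaps Herpud1 in GENCODE M21.

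Edem1, a mannosidase-like protein that marks misfolded glycoproteins for disposal (ENSMUSG00000030104, chromosome 6, 108828641 to 108859356), rose. It had 1172, 1137, 1635 and 1574 CPM in the shOgdh346 libraries at day 4, 1449, 1339, 885 and 875 CPM in the shOgdh2081 libraries and 796, 772, 717 and 700.4 CPM in the control libraries. At day 0 it had 573, 532, 898 and 874 CPM with shOgdh346, 952, 943, 721 and 748 CPM with shOgdh2081 and 822, 836, 801 and 788 CPM in the control. Clone 1 of shOgdh346 began lowest and clone 5 of the same hairpin ended highest, and all Ogdh hairpin libraries at day 4 were above the control libraries. The net log2 change was 0.82 ± 0.12 (adjusted p = 0.00117), or 1.76-fold, and the call was lost only without the clone as a replicate block (adjusted p = 0.137). It was 1.08 ± 0.14 (adjusted p = 7.26e-04) for shOgdh346 and 0.56 ± 0.14 (adjusted p = 0.0195) for shOgdh2081, and their difference of 0.52 ± 0.14 (adjusted p = 0.276) was not called. Its relatives Edem2 (ENSMUSG00000038312, chromosome 2, 155701677 to 155729475) and Edem3 (ENSMUSG00000043019, chromosome 1, 151755371 to 151822051) had net log2 changes of -0.15 ± 0.09 (adjusted p = 0.221) and 0.12 ± 0.09 (adjusted p = 0.339), neither called.

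The core of the Hrd1 complex was not called in the net change. Sel1l, the adaptor of the ligase (ENSMUSG00000020964, chromosome 12, 91806043 to 91849157), had 232 to 302 CPM in the 8 Ogdh hairpin libraries at day 4 and 248.9 to 278 CPM in the 4 control libraries, and a net log2 change of -0.02 ± 0.11 (adjusted p = 0.919). Syvn1, the ligase Hrd1 itself (ENSMUSG00000024807, chromosome 19, 6046576 to 6053712), had 61.8 to 89.4 CPM in the 8 Ogdh hairpin libraries at day 4 and 66.0 to 74.6 CPM in the 4 control libraries, and a net log2 change of 0.12 ± 0.11 (adjusted p = 0.422), although its promoter stretch printed above holds the ER stress element. Syvn1 did rise from day 0 to day 4 within shOgdh2081, by 0.35 ± 0.09 (adjusted p = 0.0105) on the log2 scale. Of the Derlins, the membrane proteins through which clients leave the ER, Derl1 (ENSMUSG00000022365, chromosome 15, 57869502 to 57892448) had a net log2 change of 0.22 ± 0.12 (adjusted p = 0.188) and Derl2 (ENSMUSG00000018442, chromosome 11, 71007164 to 71019841) of -0.02 ± 0.10 (adjusted p = 0.886). Syvn1 and Derl2 overlap the genes Mrpl49 and Mis12 on the opposite strand. Derl3 (ENSMUSG00000009092, chromosome 10, 75893413 to 75895941) was called lower, with a net log2 change of -2.09 ± 0.55 (adjusted p = 0.0155), but it had 322 counts in all 24 libraries, between 0.117 to 1.42 CPM in Ogdh hairpin libraries at day 4 and 1.15 to 1.802 CPM in control libraries, which overlap. The day 0 libraries had 2.17 to 4.28 CPM with shOgdh346, 0.567 to 1.37 CPM with shOgdh2081 and 0.378 to 1.68 CPM in the control, so its shOgdh346 libraries began above all control libraries. Its call was lost in 3 of 38 settings, and its value was -1.48 without control clone 2, where adjusted p = 0.116, and -3.25 without control clone 7.

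**Figure D4:**
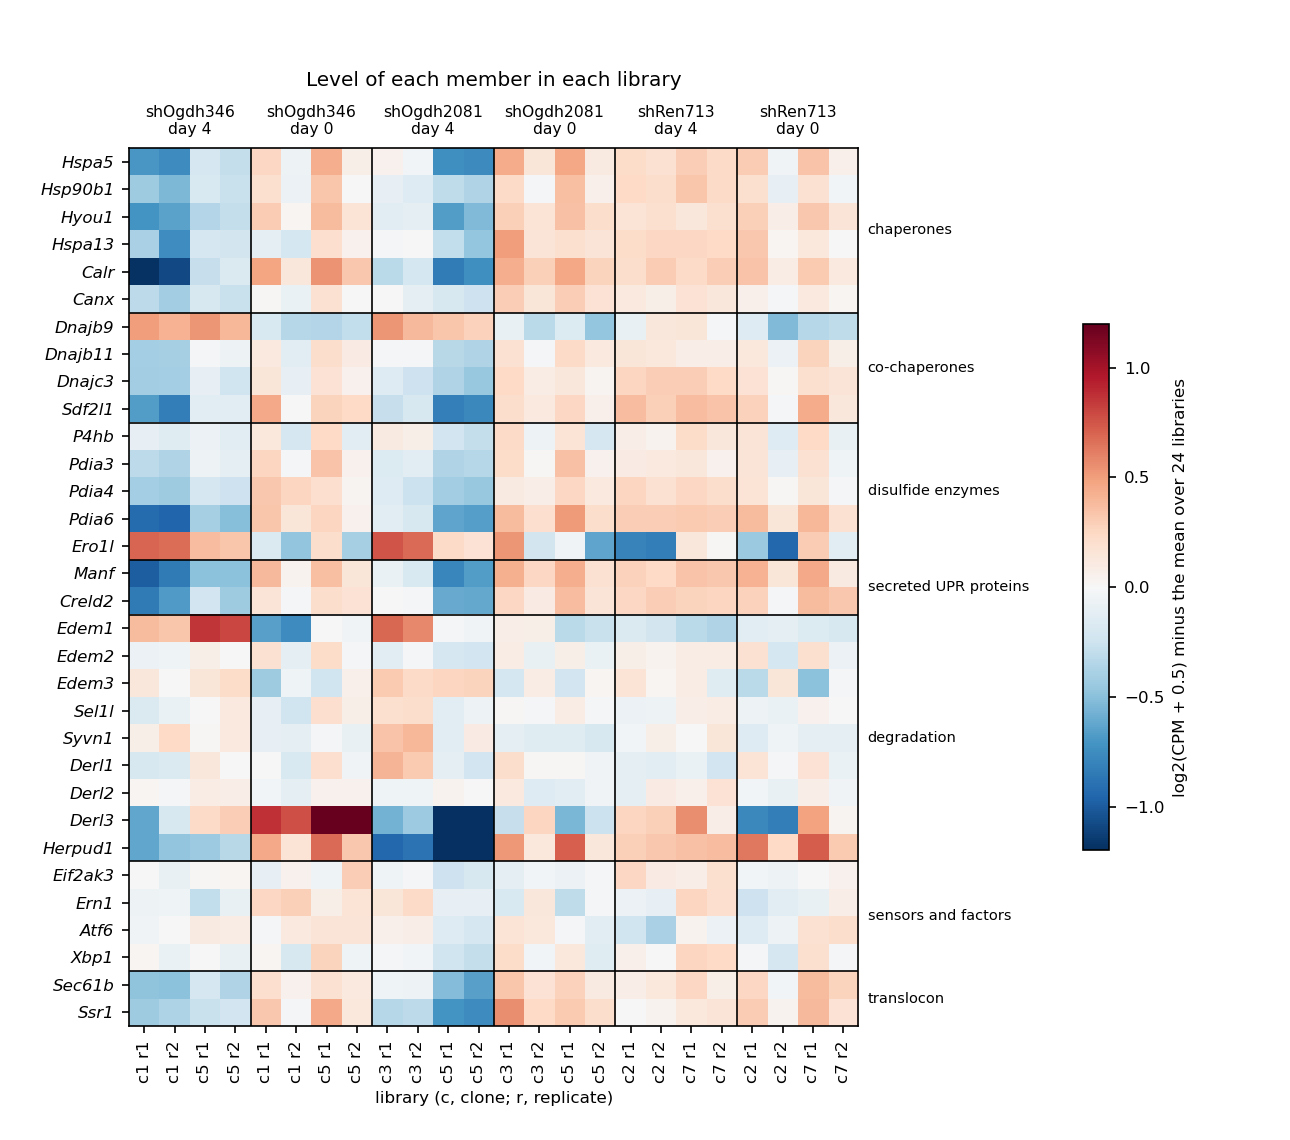
Level of each member in each library as log2(CPM + 0.5) minus the gene's mean over 24 libraries, with hairpins and days in columns and roles in rows. The blue blocks at day 4 with the Ogdh hairpins cover the chaperones and, among others, Pdia6, Manf, Creld2 and Herpud1, and leave out most degradation genes and the sensors. In these named genes the blocks are deeper in clone 1 than in clone 5 of shOgdh346, and deeper in clone 5 than in clone 3 of shOgdh2081.

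Of the sensors and Xbp1, 1 of 4 was called. Ern1, which encodes IRE1 (ENSMUSG00000020715, chromosome 11, 106394650 to 106487852), had 188, 189, 160.0 and 184 CPM in the shOgdh346 libraries at day 4, 217, 230.1, 183 and 184 CPM in the shOgdh2081 libraries and 187, 183, 234 and 226 CPM in the control libraries, so the groups overlapped at day 4. At day 0 it had 233, 238, 206 and 219.8 CPM with shOgdh346, 173, 215, 159 and 193 CPM with shOgdh2081 and 165, 179, 184 and 207 CPM in the control. Its net log2 change was -0.27 ± 0.09 (adjusted p = 0.0402), and this call was lost in 19 of 39 settings, among them every other scaling tried and DESeq2. The net value was -0.51 ± 0.10 (adjusted p = 0.00576) for shOgdh346 and -0.04 ± 0.10 (adjusted p = 0.808) for shOgdh2081, and the difference of -0.46 ± 0.10 (adjusted p = 0.171) between the hairpins was not called. Xbp1, whose mRNA IRE1 splices (ENSMUSG00000020484, chromosome 11, 5520659 to 5525893), had 209, 194, 206 and 193 CPM in the shOgdh346 libraries at day 4, 204, 200.2, 174 and 168 CPM in the shOgdh2081 libraries and 213, 205, 246 and 242 CPM in the control libraries, and its net log2 change of -0.25 ± 0.09 (adjusted p = 0.0529) lay just outside the threshold. It passed in 11 of 39 settings, with values from -0.32 to -0.17 over all of them. Eif2ak3, which encodes PERK (ENSMUSG00000031668, chromosome 6, 70844515 to 70905245), had 32.4 to 39.2 CPM in the 8 Ogdh hairpin libraries at day 4 and 41.0 to 46.0 CPM in the 4 control libraries, which did not overlap, and a net log2 change of -0.24 ± 0.11 (adjusted p = 0.125), not called. Atf6 (ENSMUSG00000026663, chromosome 1, 170704674 to 170867771) had 141 to 175 CPM in the 8 Ogdh hairpin libraries at day 4 and 124 to 167 CPM in the 4 control libraries and a net log2 change of 0.14 ± 0.08 (adjusted p = 0.199), also not called.

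Both translocon subunits on the list fell. Ssr1, the alpha subunit of the translocon-associated protein complex (ENSMUSG00000021427, chromosome 13, 37966605 to 37994217), had 351, 365, 391 and 401 CPM in the shOgdh346 libraries at day 4, 372, 379.6, 285 and 278 CPM in the shOgdh2081 libraries and 468, 484, 516 and 524 CPM in the control libraries and a net log2 change of -0.55 ± 0.11 (adjusted p = 0.00393). Sec61b, the beta subunit of the Sec61 channel (ENSMUSG00000053317, chromosome 4, 47474658 to 47483242), had 70.8 to 108 CPM in the 8 Ogdh hairpin libraries at day 4 and 117 to 132 CPM in the 4 control libraries and a net log2 change of -0.44 ± 0.14 (adjusted p = 0.0326). The day 4 groups did not overlap in either gene. Sec61b lost its call in 9 of 39 settings.

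Per kilobase of transcript, Calr stood first among the members in the control at day 4, with 829.9 CPM per kilobase, followed by P4hb with 494, Hspa5 with 308, Hsp90b1 with 284 and Pdia3 with 284. The sensors had 25.4 for Ern1, 15.8 for Atf6 and 7.16 for Eif2ak3, and Xbp1 of the same role had 69.7. Genes of other roles were also low, among them Hspa13 with 11.1, Dnajb9 with 8.89, Derl2 with 8.23 and Derl3 with 0.722. With shOgdh346 at day 4, Calr was at 452 and P4hb at 419.7 CPM per kilobase, with Edem1 at 214 and Hspa5 at 191. With shOgdh2081 Edem1 was at 178 and Hspa5 at 212 CPM per kilobase, the other order, and in the control Edem1 was at 116. The summed level of the 6 chaperones was 3056 to 4746 CPM in the 8 Ogdh hairpin libraries at day 4 and 5982 to 6171 CPM in the 4 control libraries.

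The chaperone levels at day 4 differed between clones of 1 hairpin. They summed to 3054 CPM in clone 1 and 4422 CPM in clone 5 of shOgdh346, to 4716 CPM in clone 3 and 3514 CPM in clone 5 of shOgdh2081, and to 6014 CPM in clone 2 and 6160.1 CPM in clone 7 of the control. The level of Ogdh in the same clones was 34.7 and 54.8 CPM for shOgdh346, 69.0 and 35.6 CPM for shOgdh2081, and 205 and 245 CPM for the control. Within each Ogdh hairpin the clone with less Ogdh also had less chaperone mRNA, which is 1 pair of clones a hairpin and was not tested. The order was not particular to the chaperones, as the degradation genes had it too. Edem1 made up much of the degradation sum and had this order already at day 0. It then had 573 and 532 CPM in clone 1 and 898 and 874 CPM in clone 5 of shOgdh346. In shOgdh2081 it had 952 and 943 CPM in clone 3 and 721 and 748 CPM in clone 5. The sensors were nearly equal in the clones of shOgdh346. The 9 degradation genes summed to 1915 and 2475 CPM for shOgdh346, 2324 and 1654 CPM for shOgdh2081, and 1626 and 1587 CPM for the control, and the 4 sensors and transcription factors to 581 and 584, 629 and 536, and 567 and 679 CPM in the same clones. The clone medians of the day 4 minus day 0 log2 change of the chaperones were -0.75 and -0.42 for shOgdh346, -0.30 and -0.69 for shOgdh2081, and 0.06 and 0.04 for the control. Those of the degradation genes were 0.02 and 0.02 for shOgdh346, 0.20 and -0.10 for shOgdh2081, and 0.06 and 0.02 for the control.

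Each hairpin was also tested alone. In the net change of shOgdh346, 16 members fell and 2 rose, with a background of 18.4% of genes that fell and 16.4% that rose. In that of shOgdh2081, 10 fell and 2 rose, with 14.2% and 13.6% of all genes. The 2 that rose were Ero1l and Edem1 with either hairpin. From day 0 to day 4, 19 members fell and 4 rose with shOgdh346, where 29.3% of all genes fell and 30.2% rose, and 17 fell and 5 rose with shOgdh2081, where 25.9% fell and 27.5% rose. In the control 0 fell and 0 rose, where 2.44% of all genes fell and 4.44% rose. There 4 members, Dnajb9, Ern1, Atf6 and Edem3, had an unadjusted p under 0.05, as did 3449 of all 14249 genes tested. DESeq2 called 0 members. The hairpins share the control clones in the net changes, so these counts are not independent. In the test of the difference between the Ogdh hairpins 0 members were called, with 0.0561% of all genes higher and 0.0491% lower with shOgdh346. In this test 3 members, Ern1, Edem1 and Herpud1, had an unadjusted p under 0.05, as did 1421 of all 14249 genes tested. The lowest adjusted p of a member was 0.171, and DESeq2 called 0 members. With 2 clones a hairpin this does not show that the hairpins act alike.

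As levels at day 4, 16 members were lower and 2 were higher with the Ogdh hairpins than in the control, where 21.2% of all genes were lower and 17.5% higher. The 2 higher members were Dnajb9 and Edem1. The 8 Ogdh hairpin libraries lay wholly below the 4 control libraries in 18 members and wholly above them in 3, and overlapped in 11, where 20.1% of all genes tested lay below and 16.8% above. At day 0, where the samples are labelled untreated, edgeR called 0 members and 0% of all genes, and DESeq2 called 0 members. An unadjusted p under 0.05 was found for 0 members and for 272 of all genes. Ogdh was not called either, although its shOgdh346 libraries at day 0 lay below all control libraries. The lack of calls therefore does not show that the members were equal at day 0. With shOgdh346 alone against the control, 1 member, Derl3, had an unadjusted p under 0.05, where 548 of all genes did. The lack of calls at day 0 goes with log2 differences of the chaperones between -0.01 and 0.15.

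The day 0 libraries with the replicate number 2 differed from those with number 1 in most members. In a fit of the 12 day 0 libraries with the clone as a block, 23 members were lower in replicate 2 and 2 were higher, beside 18.6% and 17.9% of all genes. All 6 clones had the lower value in replicate 2 for 23 members, and the higher value for Edem3 and Ern1. The log2 difference was -0.33 ± 0.03 (adjusted p = 2.32e-13) for Hspa5, -0.41 ± 0.04 (adjusted p = 1.71e-11) for Herpud1 and -0.53 ± 0.04 (adjusted p = 3.29e-08) for Ero1l. P4hb, not called in the net change, differed by -0.33 ± 0.03 (adjusted p = 1.39e-13). The labels do not say what the numbers stand for. With the day 0 libraries of replicate 1 alone, 15 members fell in the net change, and with those of replicate 2 alone 18 did. In both cases 2 rose.

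**Figure D5:**
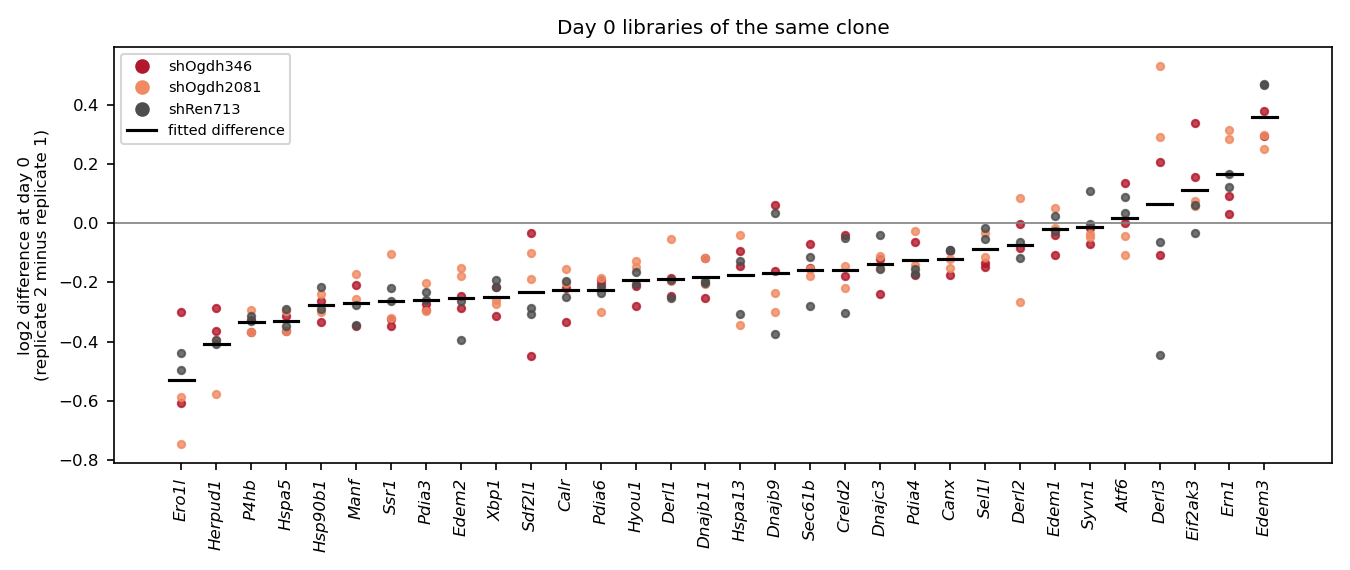
Log2 difference between the day 0 libraries of each clone, replicate 2 minus replicate 1, for the 32 members, with 1 point a clone and the fitted difference as a bar. Points lie below 0 in all 6 clones for 23 members, from Ero1l at -0.53, and above 0 in all 6 for Ern1 and Edem3.

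Other genes of the same routes were counted from 9 lists. In the translocon and signal peptide list 8 of 21 genes fell and 1 rose in the net change, led by Srp68 of the signal recognition particle at -0.78 ± 0.11 (adjusted p = 8.86e-04) on the log2 scale, with Ssr3 at -0.50 ± 0.09 (adjusted p = 0.00313). In the oligosaccharyltransferase, which adds N-glycans, 6 of 12 fell and 0 rose, among them Magt1 at -0.68 ± 0.10 (adjusted p = 9.33e-04) and Ddost at -0.64 ± 0.12 (adjusted p = 0.00294). Among other disulfide and prolyl isomerase enzymes 7 of 19 fell and 3 rose. Pdia5 stood at -1.28 ± 0.24 (adjusted p = 0.00365) and Erp27 at 1.85 ± 0.28 (adjusted p = 0.00112). In the calnexin cycle list 3 of 12 fell, with the glucosidase Mogs at -1.02 ± 0.13 (adjusted p = 4.79e-04), and 1 rose, Sdf2 at 0.49 ± 0.10 (adjusted p = 0.00426). In the list of transport from the ER to the Golgi 5 of 23 fell and 0 rose, with the coat protein Sec31a at -0.44 ± 0.11 (adjusted p = 0.0107). These shares stand beside the 19.8% and 17.9% of all genes given above.

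Of 23 further ERAD genes 1 fell and 3 rose. The one that fell was Svip, an inhibitor of the ATPase that extracts ERAD clients, at -1.35 ± 0.14 (adjusted p = 2.43e-04). The ubiquitin ligase Rnf185 rose by 0.73 ± 0.14 (adjusted p = 0.00380). Of 18 other UPR regulators 6 fell and 0 rose, among them Rtcb, the ligase that joins the spliced Xbp1 mRNA, at -0.68 ± 0.11 (adjusted p = 0.00137), the NF-Y subunit Nfya at -0.56 ± 0.10 (adjusted p = 0.00316), and the proteases Mbtps2 and Mbtps1 that cleave ATF6, at -0.41 ± 0.12 (adjusted p = 0.0243) and -0.33 ± 0.10 (adjusted p = 0.0254). Of 13 tested genes of the PERK and ATF4 arm 6 fell and 5 rose. Asns, which makes asparagine, stood at -2.001 ± 0.12 (adjusted p = 2.26e-05) and Atf5 at -0.90 ± 0.13 (adjusted p = 0.00112). Ddit4 stood at 1.12 ± 0.14 (adjusted p = 4.49e-04) and the transcription factor Cebpb at 1.11 ± 0.12 (adjusted p = 2.57e-04). Atf4 and Ddit3, which encodes CHOP, were looked up after the other values were seen and stood at -0.58 (adjusted p = 0.0151) and 0.70 (adjusted p = 0.0583). Of 6 receptors for ER-phagy, the removal of ER by autophagy, 3 rose and 1 fell. Retreg1 stood at 1.72 ± 0.21 (adjusted p = 5.41e-04), Tex264 at 0.69 ± 0.10 (adjusted p = 0.00120) and Atl3 at -0.77 ± 0.10 (adjusted p = 6.04e-04). Ccpg1 also rose, at a mean of 1.46 CPM in the Ogdh hairpin clones at day 4 and 0.509 CPM in the control clones.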

How the data were processed

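RNA-seq libraries (polyA-selected, single-end) of 6 RN2 clones were made at 2 days. The deposited values are raw counts per gene, whole numbers with no normalization. Per the submitters' processing notes featureCounts 1.6.3, STAR 2.6.1a, Trimmomatic 0.36 and FastQC 0.11.5 were used with the builds mm10 and GRCm38. Per the labels' protocols, a human genome, HTSeq and RPKM were used instead, which whole-number counts under mouse gene IDs do not match. How the counting used strand, and which annotation, is not given in the sources used here.

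Counts of the 2 libraries that share a clone and a day were added, which gave 12 sums. Genes were kept by edgeR's filterByExpr (14249 of 53465), scaled by TMM and tested by the quasi-likelihood test of edgeR 4.0.16 (R 4.3.3, limma 3.58.1) with robust dispersions, a block for the clone and, per hairpin, a term for day 4, which leaves 3 residual degrees of freedom. Levels within a day were fitted as 6 groups without the block; each clone enters that fit at both days, so its sums are not independent. P-values were adjusted by Benjamini-Hochberg over all genes tested. SE is the size of the log2 difference divided by the square root of F. CPM is a count scaled by the TMM-adjusted total of its library, in the usual CPM unit. The clone of the labels pairs the days; deviations of the same clone at day 4 and day 0 correlated at 0.598 to 0.886. Repeat libraries of a clone differed by more than sampling noise (chi-square per gene 6.78 to 10.3 at day 0 and 1.60 to 2.94 at day 4), so none was counted as a copy. The fit of the net change was also run on simulated counts with known changes, with the same spread set for all genes. That spread was not taken from these data, so the run does not show how the fit performs on them. DESeq2 1.42.0, other scalings and filters, other blocks and fits without a clone or library were alternatives.

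The members and lists were chosen with earlier results of these data known. All members could be named, with up to 4 genes of the smallest p from each further list. Protein sequence features were not analysed here.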

Additional observations from a re-analysis of the deposited data

Results flagged for a closer look

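Hspa13 had 78.2 CPM in replicate 1 of shOgdh2081 clone 3 at day 0, above the 61.5 to 63.2 CPM of the other 3 day 0 libraries of that hairpin. It was the 1 group of 4 libraries, of 192 tested over the members, in which a single library stood this far from the rest (the gap was 0.896 of the whole range), and chance alone gives such a gap in about 1 in 20 groups.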

How the results depend on the processing

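The net change, in which 18 members fell and 2 rose, was recomputed under 39 alternatives; alternatives for other contrasts were chosen after seeing the data. With RLE scaling 17 fell and 2 rose, with upper-quartile scaling 17 and 3, with DESeq2 16 and 2, with no low-count filter 18 and 2, with day 0 replicate 1 alone 15 and 2 and with replicate 2 alone 18 and 2. Among genes with a mean of at least 10 CPM, 14 fell and 4 rose in the net change, and 4 rose in that of shOgdh346 and 1 in the control. With no replicate block, 9 fell and 0 rose in the net change, 5 fell and 0 rose for shOgdh346, 1 fell and 0 rose for shOgdh2081, and 2 and 3 rose in the day 4 change of shOgdh346 and shOgdh2081. With libraries as units and the replicate block, 20 fell and 3 rose in the net change, 19 fell for shOgdh2081, 1 rose and 1 fell in the control, and 1 was higher and 1 lower between the hairpins. With no low-count filter, 17 fell for shOgdh2081, 2 were higher and 1 lower between the hairpins, and 0 were higher at day 4. With day 0 replicate 1 alone, 1 rose for shOgdh2081 and 1 in the control; with replicate 2 alone 16 fell for shOgdh2081. Leaving out 1 clone or library gave 2 to 20 that fell and 2 to 3 that rose in the net change, 1 to 18 and 1 to 2 for shOgdh346, and 1 to 16 and 0 to 2 for shOgdh2081. It gave 8 to 19 that fell and 3 to 5 that rose in the day 4 change of shOgdh346, 5 to 18 and 3 to 5 for shOgdh2081, and 0 that fell and 0 to 1 that rose in the control. Between the hairpins it gave 0 to 1 higher, and as levels at day 4 it gave 6 to 17 lower and 0 to 2 higher. These counts stand without the share of all genes called in each setting. Whether a loss of calls among the members went beyond fewer calls over all genes was not compared here. Uncalled values near 0 changed sign. The log2 net change of Sel1l was 0.0122 with RLE scaling and 0.0122 with DESeq2, 0.0273 with upper-quartile scaling, 0.0642 among genes of at least 10 CPM and 0.0436 with day 0 replicate 2 alone, and ran from -0.100 to 0.0521 where 1 clone or library was left out. The log2 net change of Derl2 was 0.00845 with RLE scaling, 0.00845 with DESeq2, 0.0235 with upper-quartile scaling and 0.0604 among genes of at least 10 CPM, and ran from -0.0679 to 0.0237 where 1 clone or library was left out. The log2 net change of Edem3 ran from -0.0163 without control clone 2 day 0 replicate 2 to 0.251 without control clone 7 day 0 replicate 1. The cause was not tested. No called value changed sign.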
